A study of Mus musculus with 9 samples.

Results

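The genes for cystine uptake, glutathione synthesis and the NRF2 response were examined as a set of 10 genes in retinal explants treated with 2-deoxy-D-glucose (2-DG). They were taken by gene symbol from the 55487 genes of the gene count table: Slc7a11, Slc3a2, Slc7a5, Gclc, Gclm, Gss, Gpx4, Hmox1, Nqo1 and Txnrd1. All 10 passed the filter on low counts and were tested. The smallest count of any of them in any library was 126, for Nqo1, and the largest was 166373, for Hmox1.

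Every explant was a retina of a wild-type C57BL/6J mouse at postnatal day 28, kept in culture for 48 h with glucose at 5 mM, followed by a rinse and 1 h in Krebs' Ringer before total RNA was taken. The 5 control libraries came from explants with glucose alone, and the 4 2-DG libraries from explants that also received 20 mM 2-DG, a glucose analog that is phosphorylated by hexokinase and then slows glycolysis. Explants are cut off from their blood supply and optic nerve, so both groups are injured tissue, and no uncultured retina was part of these libraries. The comparison asked how the genes of cystine uptake and antioxidant defence were expressed when glycolysis was blocked.

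Cells make glutathione from cysteine, glutamate and glycine, and most cells in culture obtain cysteine as its dimer, cystine. SLC7A11 (xCT) is the light chain of the antiporter that imports cystine and exports glutamate, and SLC3A2 is the heavy chain that carries it to the membrane. Glutamate-cysteine ligase, made of the catalytic subunit GCLC and the modifier subunit GCLM, joins cysteine to glutamate, and glutathione synthetase, encoded by Gss, adds glycine. Many of these genes are targets of NRF2, a transcription factor that the adaptor KEAP1 marks for degradation until oxidants or electrophiles modify KEAP1. Slc7a11 and Slc3a2 are also targets of ATF4, which is translated when amino acids are scarce or proteins misfold. In the retina, glutathione is abundant in Müller glia, which also supply neurons with its precursors.

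Sequences just upstream of the start sites are shown for the 3 genes whose windows held a match to the binding motif of either factor. The motifs were the core of the antioxidant response element, TGACNNNGC, which NRF2 binds with small MAF proteins, and the amino acid response element TGATGCAA, which ATF4 binds. Both strands were searched over the 250 bases before each start in RefSeq on GRCm38.p6. Windows were found for 7 of the 10 genes, 12 windows in all. Capitals mark the matches.

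Slc7a11: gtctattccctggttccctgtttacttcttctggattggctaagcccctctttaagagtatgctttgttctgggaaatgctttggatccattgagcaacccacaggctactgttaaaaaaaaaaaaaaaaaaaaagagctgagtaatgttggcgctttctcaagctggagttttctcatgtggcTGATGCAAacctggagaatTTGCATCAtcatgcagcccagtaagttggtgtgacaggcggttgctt
Gclm: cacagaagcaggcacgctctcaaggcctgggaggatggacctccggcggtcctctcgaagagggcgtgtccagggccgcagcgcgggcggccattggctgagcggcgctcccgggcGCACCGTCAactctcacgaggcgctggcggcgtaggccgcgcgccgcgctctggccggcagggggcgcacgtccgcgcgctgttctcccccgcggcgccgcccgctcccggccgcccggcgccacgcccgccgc
Txnrd1: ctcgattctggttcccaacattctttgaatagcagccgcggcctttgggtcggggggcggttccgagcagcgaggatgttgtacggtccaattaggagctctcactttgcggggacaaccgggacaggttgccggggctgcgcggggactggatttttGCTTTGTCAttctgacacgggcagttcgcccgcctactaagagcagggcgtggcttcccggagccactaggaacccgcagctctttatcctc

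The Slc7a11 window (chr3:50443614-50443863, minus strand) held 2 amino acid response elements, one on each strand, whose first bases lay 66 and 47 bases before the start. Of 32851 windows of that length, 0.791% held at least 1 such match and 0.00609% held 2. Only 2 windows did, that of Slc7a11 among them. The Gclm window (chr3:122245307-122245556, plus strand) held 1 antioxidant response element core, beginning 134 bases before the start. Of the 3 Txnrd1 windows, the second (chr10:82858956-82859205, plus strand) held 1, beginning 92 bases before the start. At least 1 match to that core was present in 10.2% of all windows. The windows of Slc3a2, Gss, Gpx4 and Nqo1 held neither string of letters, and Slc7a5, Gclc and Hmox1 were not searched.

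None of the 10 genes passed an adjusted p of 0.05 between 2-DG and control in edgeR's quasi-likelihood test, and 0 of the 21049 genes tested did (0%). Slc7a11 and Gclm had an unadjusted p under 0.05, both with higher fitted levels in 2-DG. That is 2 of 10 genes, against 7.25% of all genes in either direction and 2.42% higher in 2-DG. In DESeq2 and in limma-voom with sample quality weights, none of the genes given an adjusted p passed either, against 284 (1.35%) and 1222 (5.81%) of all genes. DESeq2 gave no p for Gclm, so 9 of the 10 genes were tested there. None of the 10 was lower at an unadjusted p under 0.05 in edgeR's test on all 9 libraries, against 4.83% of all genes. Which genes had such a p depended on the libraries. None of the 10 had one when control replicate 1, 2 or 3 was left out. In those fits 1625 of 20600, 1855 of 20632 and 1364 of 20538 genes had one. When control replicate 2 and 2-DG replicate 4 were both left out, the 2 with one were Gclc (log2 fold change -0.36, edgeR unadjusted p = 0.0376) and Txnrd1 (-1.04, unadjusted p = 0.0151), both lower in 2-DG, which makes 2 of 10 against 15.7% of all genes in that fit. The same 2 genes were lower with limma-voom with sample quality weights (-0.33 and -0.89, unadjusted p = 0.0381 and 0.0193), against 26% of all genes there. CPM, estimated counts scaled to a common library size after TMM normalization, are the level used throughout, and a log2 fold change is 2-DG minus control. Fitted log2 fold changes of the 10 genes had a median of 0.58, and those of all genes a median of -0.01. When 2-DG replicate 4 was left out, the medians were 0.09 and -0.05. In that fit 0 of the 10 genes passed the adjusted threshold, against 0.00946% of all genes, and 0 had an unadjusted p under 0.05, against 12.9%. For 0 of the 10 genes were the groups free of overlap, against 2.93% of all genes.

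One library set much of this. 2-DG replicate 4 was the highest of the 9 libraries for 7 of the 10 genes, against 17.7% of all genes. It was at least 1.5 times the highest other library for 4 of the 10 (Slc7a11, Slc3a2, Gclm and Hmox1), against 3.99% of all genes, and stood apart upward from the other 2-DG libraries by Dixon's criterion for 6 of the 10, against 8.64%. It also had the largest share of mitochondrial counts, 13.6% (3.40% to 10.7% in the others). Its summed endothelial markers (Cldn5, Pecam1, Cdh5, Slco1a4, Mfsd2a) reached 2342 CPM, beside 853 and 1659 CPM in control replicates 4 and 5 and 147 to 681 CPM in the other 6 libraries. All 5 endothelial markers were tested and none was at 0. An unadjusted p under 0.05 was found for 1 of them (higher in 2-DG), against 2.42% of all genes. In 2-DG replicate 4, Cdh5 (1346 CPM), Pecam1 (658 CPM) and Mfsd2a were above every control, while Cldn5 and Slco1a4 were below the highest control. The part of these differences in the results was not tested.

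Retinal identity was checked on rod, cone, bipolar and ganglion cell markers, none of which was at 0. Their summed levels in control and 2-DG were 4384 to 37535 and 6597 to 13711 CPM for rods, 37.9 to 510.6 and 40.6 to 633.6 CPM for cones, 95.1 to 1424 and 202 to 1981 CPM for bipolar cells, and 180 to 1040 and 141 to 488 CPM for ganglion cells. Microglial markers summed to 28.6 to 156 and 57.5 to 78.5 CPM, astrocyte markers to 19.8 to 81.8 and 21.9 to 144 CPM, and pericyte markers to 86.6 to 246 and 116 to 182 CPM. Lens (0.458 to 15.0 and 0.809 to 10.97 CPM) and red blood cell markers (4.46 to 22.6 and 3.14 to 11.33 CPM) were low. None of the genes tested in these lists had an unadjusted p under 0.05. For each of the 10 genes the fit is given both with and without 2-DG replicate 4. In such bulk samples a smaller share of a cell type and less RNA per cell cannot be told apart.

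**Figure D1:**
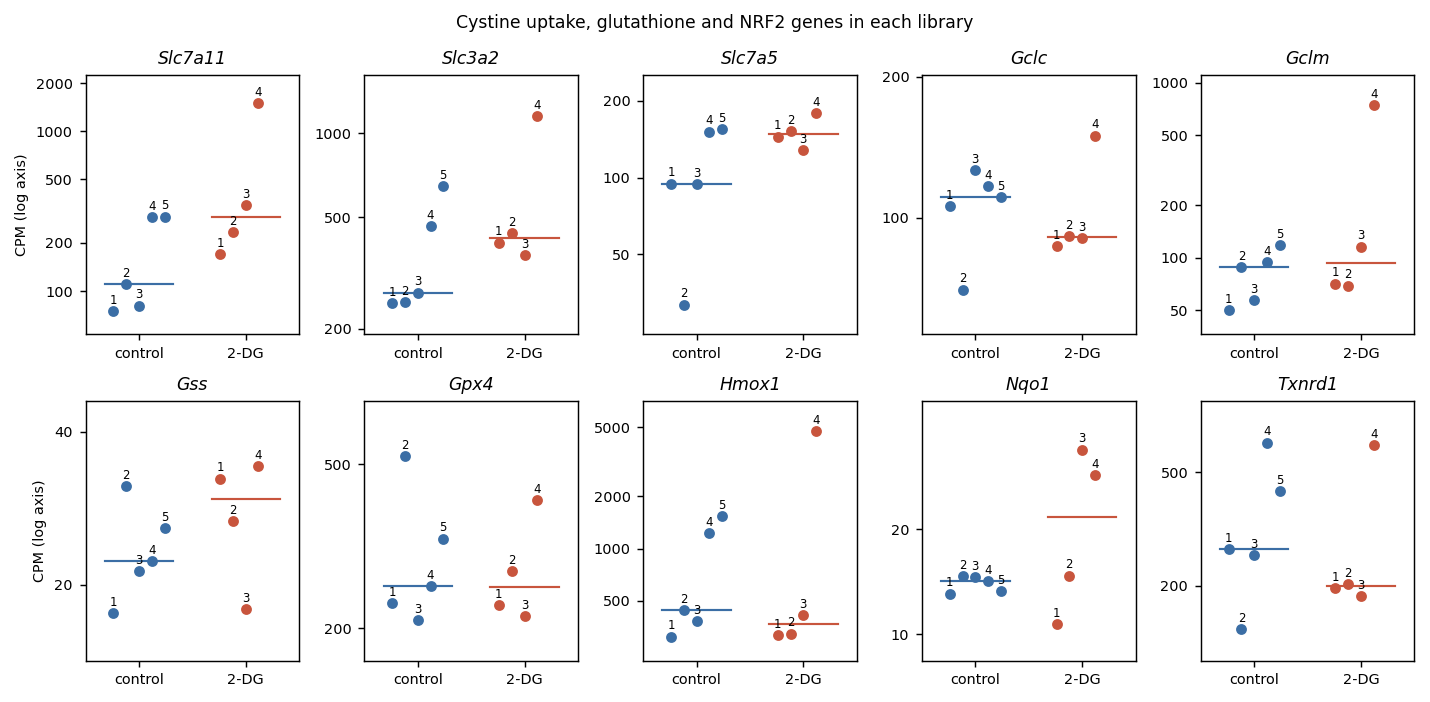
CPM of each of the 10 genes in each library (log axis, different range in each panel) in control (blue, 5 libraries) and 2-DG (red, 4 libraries); the number is the replicate and the line the group median. 2-DG replicate 4 stands far above the other libraries for Slc7a11, Gclm and Hmox1, while control replicates 4 and 5 stand above the other controls for Slc7a11, Slc3a2 and Hmox1.

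Slc7a11 had the largest fitted difference of the 10 genes in edgeR's test on all 9 libraries. Hmox1 and Txnrd1 had larger ones with limma-voom with sample quality weights and without 2-DG replicate 4. Gclm had a larger one without control replicate 2 (1.65 against 1.61). With control replicate 2 and 2-DG replicate 4 both left out, those of Hmox1, Txnrd1 and Nqo1 were larger. Slc7a11 (ENSMUSG00000027737, chr3:49892526-50443614 on GRCm38, minus strand) measured 74.6, 110.9, 80.9, 289.2 and 292.5 CPM in control replicates 1 to 5 and 171.1, 233.2, 344.6 and 1499.9 CPM in 2-DG replicates 1 to 4. All 4 2-DG libraries were above the control mean of 170 ± 112 CPM (SD), but 2 of them were below control replicates 4 and 5, so the groups overlapped. The fitted log2 fold change was 1.73 (SE 0.69, edgeR adjusted p = 0.656, unadjusted 0.0305). 2-DG replicate 4 alone was 4.35 times the highest other library. Without it the log2 fold change was 0.56 (SE 0.51, edgeR unadjusted p = 0.301), with a mean of 250 ± 87.9 CPM in the other 3 2-DG libraries.

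Slc3a2 (ENSMUSG00000010095, chr19:8706882-8723369, minus strand), which encodes the heavy chain shared by xCT and several other amino acid transporters, measured 246.8, 248.6, 268.7, 465.7 and 644.6 CPM in control and 405.7, 439.9, 365.2 and 1152.8 CPM in 2-DG. The 3 lower 2-DG libraries lay between control replicates 3 and 4, and the fourth was above every control. It had a log2 fold change of 0.66 (SE 0.44, edgeR adjusted p = 0.779), and 0.11 without 2-DG replicate 4. Slc7a5 (ENSMUSG00000040010, chr8:121881150-121907694, minus strand) encodes LAT1, the light chain that pairs with SLC3A2 to exchange large neutral amino acids. It measured 94.7, 31.8, 93.9, 151.3 and 154.6 CPM in control and 144.5, 151.9, 127.8 and 178.5 CPM in 2-DG. The 2-DG libraries were close together and overlapped control replicates 4 and 5, and the low end of the control range was control replicate 2. LAT1 had a log2 fold change of 0.52 (SE 0.38, edgeR adjusted p = 0.799), 0.42 without 2-DG replicate 4 and 0.28 without control replicate 2.

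The light chains moved apart in 2-DG replicate 4. The ratio of Slc7a11 to Slc7a5, each in CPM per kilobase of annotated exon, was 0.210 to 0.929 in the control libraries, 0.315 to 0.718 in 2-DG replicates 1 to 3 and 2.24 in 2-DG replicate 4. The ratio of Slc7a11 to its heavy chain Slc3a2 on the same scale was 0.0763 to 0.157 in control and 0.107 to 0.330 in 2-DG. Exon length here covers every annotated transcript, among them a long Slc7a11 transcript, Slc7a11-205, that took 0.00652% of the transcript counts of the gene, so the size of each ratio depends on that length, while its order across libraries does not. Of the other light chains of SLC3A2, Slc7a6, Slc7a7 and Slc7a8 were tested, 0 of the 3 passed the threshold or had an unadjusted p under 0.05, and Slc7a10 was too low to test. Their median was 0.11, and 0.39 without 2-DG replicate 4. Slc7a6 (y+LAT2) had a log2 fold change of 0.37 (SE 0.20, edgeR adjusted p = 0.739), Slc7a8 (LAT2) 0.11 and Slc7a7 (y+LAT1) 0.07. Without 2-DG replicate 4 these were 0.45 (edgeR unadjusted p = 0.0587), 0.39 and -0.43, so the sign of Slc7a7 turned.

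Of the enzymes that make glutathione, Gclm alone differed by more than its standard error with all 9 libraries. Gclm (ENSMUSG00000028124, chr3:122245557-122270732, plus strand) measured 50.1, 88.2, 57.1, 94.2 and 118.1 CPM in control and 71.2, 69.4, 115.7 and 747.2 CPM in 2-DG. 2-DG replicates 1 to 3 lay inside the control range, and replicate 4 was 6.33 times the highest other library. A log2 fold change of 1.62 was fitted (SE 0.69, edgeR adjusted p = 0.673, unadjusted 0.0384), and one of 0.07 (SE 0.32) without 2-DG replicate 4. Gclc (ENSMUSG00000032350, chr9:77754535-77794485, plus strand) measured 106.1, 70.2, 126.7, 117.0 and 110.6 CPM in control and 87.0, 91.4, 90.7 and 149.9 CPM in 2-DG. Apart from the low control replicate 2 and the high 2-DG replicate 4, each control was above each 2-DG library. Its log2 fold change was -0.02 (SE 0.25, edgeR adjusted p = 0.990), and -0.24 (SE 0.22) without 2-DG replicate 4. In that fit Gclc, and not Gclm, differed by more than its standard error.

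The subunits of glutamate-cysteine ligase stood in different proportion in that library. Per kilobase of exon, the ratio of Gclm to Gclc was 0.270 to 0.752 in control, 0.454 to 0.764 in 2-DG replicates 1 to 3 and 2.98 in 2-DG replicate 4. Gss (ENSMUSG00000027610, chr2:155563181-155592810, minus strand) measured 17.6, 31.3, 21.2, 22.2 and 25.8 CPM in control and 32.3, 26.7, 17.9 and 34.2 CPM in 2-DG. Both groups covered nearly the same range, and the log2 fold change was 0.23 (SE 0.26, edgeR adjusted p = 0.854). With 1 library left out it ranged from 0.12, without 2-DG replicate 4, to 0.40, without 2-DG replicate 3.

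Gpx4 (ENSMUSG00000075706, chr10:80047166-80056439, plus strand) encodes the selenoprotein that uses glutathione to reduce lipid peroxides in membranes and so protects cells from ferroptosis. It measured 230.3, 523.2, 209.5, 253.3 and 330.0 CPM in control and 227.6, 275.1, 214.4 and 408.1 CPM in 2-DG. The highest library was control replicate 2, which also had the highest sum of rod markers, 37535 CPM against 4384 to 13711 CPM in the other 8 libraries. How far rod content bears on Gpx4 was not tested. Fitted on all libraries, the difference was -0.14 on the log2 scale (SE 0.33, edgeR adjusted p = 0.935), -0.37 without 2-DG replicate 4 and 0.14 without control replicate 2.

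Of the NRF2 targets outside glutathione synthesis, Hmox1 and Txnrd1 had alike profiles over the libraries (r = 0.839 over the 9 libraries), and Nqo1 had another (r = 0.400 with Hmox1). Hmox1 (ENSMUSG00000005413, chr8:75093621-75100589, plus strand), the inducible heme oxygenase, measured 311.1, 441.4, 383.6, 1226.1 and 1531.8 CPM in control and 319.0, 324.4, 416.1 and 4758.0 CPM in 2-DG. Control replicates 4 and 5 and 2-DG replicate 4 formed the upper part of the range, and the other 6 libraries lay close together whichever group they came from. Its log2 fold change was 0.90 (SE 0.88, edgeR adjusted p = 0.838) with all 9 libraries and -1.14 (SE 0.56, edgeR unadjusted p = 0.0706) without 2-DG replicate 4, so the direction turned on 1 library. Both fits left Hmox1 short of the threshold.

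Txnrd1 (ENSMUSG00000020250, chr10:82833951-82897712, plus strand), the cytosolic thioredoxin reductase, measured 269.4, 141.4, 257.0, 635.8 and 430.8 CPM in control and 197.0, 203.0, 184.7 and 624.1 CPM in 2-DG. Its 3 highest libraries were again control replicates 4 and 5 and 2-DG replicate 4. 2-DG replicates 1 to 3 had a mean of 194.9 ± 9.31 CPM (SD) and were below every control except replicate 2. The log2 fold change was -0.20 (SE 0.50, edgeR adjusted p = 0.938), and -0.83 (SE 0.43, edgeR unadjusted p = 0.0850) without 2-DG replicate 4.

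Nqo1 (ENSMUSG00000003849, chr8:107388225-107403206, minus strand), a quinone reductase often used as a readout of NRF2, had the tightest controls of the 10 genes relative to its level. It measured 13.1, 14.7, 14.6, 14.2 and 13.3 CPM in control (mean 13.97 ± 0.745, SD) and 10.7, 14.7, 33.7 and 28.5 CPM in 2-DG. 2-DG replicates 3 and 4 were about double every control, replicate 2 was just above the highest control and replicate 1 was below every control. The highest library here was 2-DG replicate 3, the library with the most retinal pigment epithelium marker counts, 69.1 CPM for Rpe65, Ttr, Best1, Rdh5 and Lrat together against 21.6 CPM in 2-DG replicate 4 and 2.89 to 11.8 CPM in the other 7. Of those 5 markers, 3 were tested and 1 had an unadjusted p under 0.05 (higher in 2-DG), against 2.42% of all genes. In 2-DG replicate 3, Ttr alone was at 49.0 CPM. Rpe65 and Lrat were also above every control there, while Best1 and Rdh5 lay inside the control range. The part of these markers in the Nqo1 values was not tested. The log2 fold change of Nqo1 was 0.65 (SE 0.33, edgeR adjusted p = 0.714), 0.50 (SE 0.35) without 2-DG replicate 4 and 0.37 without 2-DG replicate 3.

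**Figure D2:**
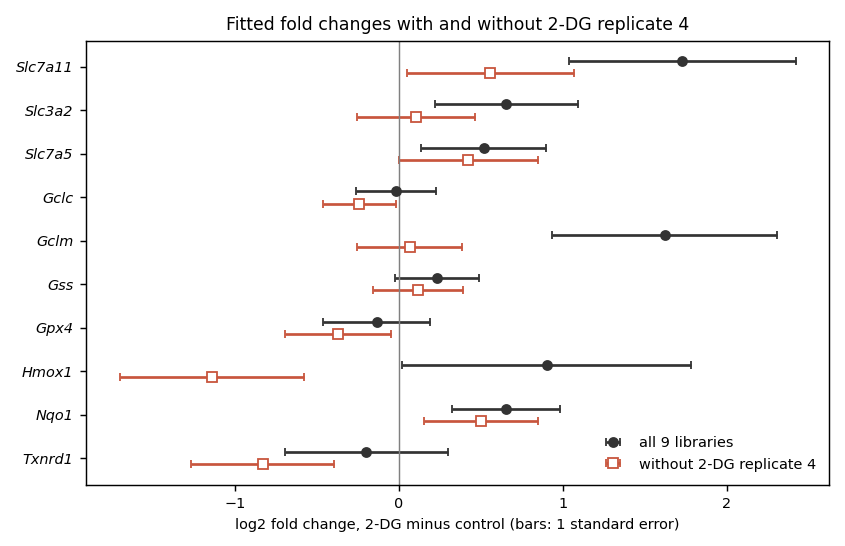
Fitted log2 fold change (2-DG minus control) of each of the 10 genes with all 9 libraries (filled circles) and without 2-DG replicate 4 (open squares); bars are 1 standard error. Without that library Gclm moved from 1.62 to 0.07 and Hmox1 from 0.90 to -1.14, while Slc7a5 and Nqo1 moved little.

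Per kilobase of exon, Hmox1 had the highest mean of the 10 genes in control explants, at 445 ± 320 CPM per kilobase (SD, n = 5), followed by Gpx4 at 179 ± 74.2, but the gap between them was smaller than the spread of Hmox1. Gss was the least abundant at 3.995 ± 0.879, with Nqo1 at 8.99 ± 0.480. The order within the middle of the list was also unsure, from Slc3a2 at 106.2 ± 50.01 to Slc7a11 at 12.2 ± 8.01, since neighbours such as Slc7a5 (28.4 ± 13.6) and Gclc (28.2 ± 5.71) differed by less than their spread.

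Among transcripts above 10% of the counts of their gene, the transcript table gave one difference between the groups that 2-DG replicate 4 did not set. It held 54 transcripts of the 10 genes, of which 41 were tested and 16 took over 10% of the transcript counts of their gene. For 6 genes a single transcript carried between 82.1% (Txnrd1-201) and 100% (Nqo1-201) of the counts. Slc7a11-201 carried 99.5%, Hmox1-201 and Gclc-201 99.2% each and Slc7a5-201 99.3%. Slc3a2, Gclm, Gss and Gpx4 were divided further, with 61.4% for Slc3a2-201, 52.5% for Gpx4-202 and 51.4% for Gss-201.

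Gss was the gene whose division differed among those transcripts. The transcript Gss-201 (chr2:155563181-155592810) took 42.2%, 31.6%, 6.27%, 46.1% and 37.9% of Gss transcript counts in control replicates 1 to 5 and 59.0%, 70.1%, 53.7% and 65.6% in the 2-DG libraries. Gss-203 (chr2:155563189-155592714) took 33.7%, 51.3%, 69.0%, 37.3% and 51.8% in control and 18.0%, 5.04%, 29.4% and 27.9% in 2-DG. Every 2-DG library was above every control for Gss-201 and below every control for Gss-203, and both transcripts are annotated as protein-coding. The means were 32.8 ± 15.8% and 62.1 ± 7.21% (SD, n = 5 and 4) for Gss-201. Shares of 2 of the 10 transcripts of these 4 genes did not overlap between groups, both from Gss and so not independent, against 1.3% of 14960 transcripts compared in the same way.

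As levels, these transcripts were not past the threshold. Gss-201 had a log2 fold change of 1.15 (SE 0.56, edgeR adjusted p = 0.9996) and Gss-203 one of -1.04 (SE 0.58, edgeR adjusted p = 0.9996). Gss had between 278 and 1196 gene counts per library, and reads were divided between overlapping transcripts by an estimate whose error is not in the deposited counts. The third transcript, Gss-205, is a retained intron form with 4.68% to 18.1% of the counts across all libraries, and it overlapped between groups.

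For the other divided genes, the shares of transcripts above 10% overlapped between groups. Among minor transcripts, those of Slc3a2-204 (0.150% to 0.295% in control and 0.0259% to 0.0494% in 2-DG) and Gpx4-206 (1.35% to 2.04% and 0.883% to 1.12%) did not. Slc3a2-204 was at 0.0920 to 0.448 CPM in the 2-DG libraries, and at less than 3 counts in 2-DG replicate 1. The share of all minor transcripts without overlap was not taken, so both lack a background. Gclm-206 took 20.0% to 31.6% of Gclm transcript counts in control and 29.0% to 38.8% in 2-DG. Its log2 fold change was 1.87 (SE 0.78, edgeR adjusted p = 0.9996, unadjusted 0.0373), against 0.76 (SE 0.54) for Gclm-201. In 2-DG replicate 4, Gclm-206 reached 240 CPM, Gclm-203 160 CPM and Gclm-201 178 CPM. Their control means were 21.6, 13.1 and 42.1 CPM, so relative to control Gclm-206 and Gclm-203 were raised more than Gclm-201. Slc3a2-201 took 36.1% to 68.2% in control and 51.3% to 66.3% in 2-DG, and Gpx4-202 took 27.3% to 61.5% and 41.1% to 61.9%. Of all 41 transcripts tested, 0 passed an adjusted p of 0.05 (0% of all 62900 transcripts tested), and 3 were higher and 3 lower at an unadjusted p under 0.05 (3.45% of all in either direction).

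**Figure D3:**
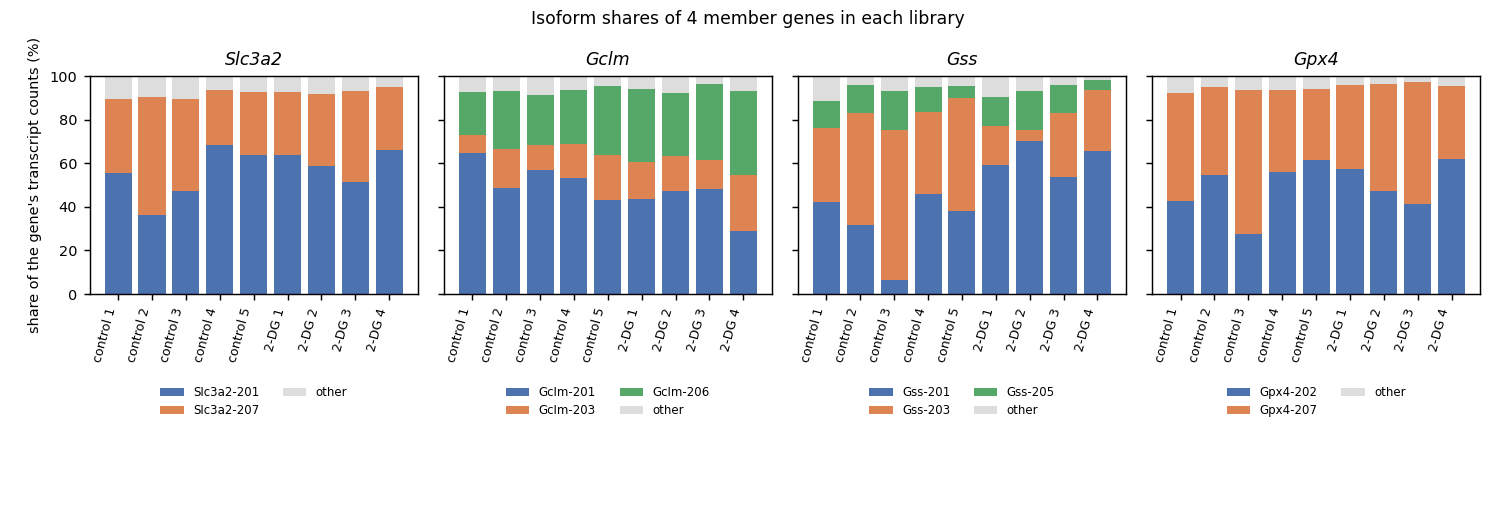
Share of the transcript counts of Slc3a2, Gclm, Gss and Gpx4 taken by each transcript above 10% (coloured, named under each panel) and by all others (grey), in percent, in each library. Gss-201 took 6.27% to 46.1% in the control libraries and 53.7% to 70.1% in the 2-DG libraries, while the named transcripts of the other 3 genes overlapped between groups.

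The regulators of NRF2 were examined next, and 0 of the 10 listed genes passed the threshold or had an unadjusted p under 0.05 with all 9 libraries (7.25% of all genes had one). Nfe2l2, which encodes NRF2 itself, measured 94.6, 58.5, 131.8, 169.2 and 219.7 CPM in control and 91.0, 109.1, 100.2 and 306.7 CPM in 2-DG. 2-DG replicates 1 to 3 lay inside the control range and replicate 4 above it. The log2 fold change of Nfe2l2 was 0.17 (SE 0.46, edgeR adjusted p = 0.943), and -0.43 without 2-DG replicate 4. Keap1 measured 30.7 to 45.1 CPM in control and 37.1, 35.6, 35.9 and 87.9 CPM in 2-DG. All libraries but that last one were alike, and the log2 fold change was 0.38 (SE 0.30, edgeR adjusted p = 0.814) with it and -0.06 without it. The next smallest p values among the regulators were those of Mafg, a small MAF partner (log2 fold change 0.25, and 0.12 without 2-DG replicate 4), and Nfe2l1, a relative of NRF2 that controls proteasome genes (0.39). Over the list, the median log2 fold change was 0.12 with all libraries and -0.31 without 2-DG replicate 4. Without it 1 of the 10, the small MAF gene Maff, had an unadjusted p under 0.05, against 12.9% of all genes, with a log2 fold change of -2.16 (edgeR unadjusted p = 0.0137).

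Other NRF2 targets leaned upward without passing the threshold. The fitted log2 fold change was above 0 for 16 of 18 genes, against 49.2% of all genes tested, and for 11 of 18 without 2-DG replicate 4, against 46.5%. It was also above 0 for 8 of 10 NRF2 regulators and 23 of 29 genes that use glutathione and thioredoxin. Without 2-DG replicate 4 those counts were 2 and 20. Catalase, Cat, which breaks down hydrogen peroxide, measured 29.0, 27.1, 26.2, 29.0 and 42.4 CPM in control and 40.7, 41.9, 53.3 and 86.9 CPM in 2-DG. Control replicate 5 alone reached the 2-DG range. Its log2 fold change was 0.86 (SE 0.27, edgeR adjusted p = 0.546), and 0.56 (SE 0.23) without 2-DG replicate 4. The pentose phosphate enzymes Pgd and Taldo1, which stand in the route that supplies NADPH, had log2 fold changes of 1.29 (SE 0.43, edgeR adjusted p = 0.577) and 1.68 (SE 0.65, edgeR adjusted p = 0.636). Without 2-DG replicate 4 these were 0.58 and 0.23. Cat, Pgd, Taldo1 and the peroxiredoxin gene Prdx1 were the 4 of 18 genes with an unadjusted p under 0.05, all higher, against 2.42% of all genes. Without 2-DG replicate 4, Cat and Osgin1 alone had one (2 of 18 against 12.9%), and Osgin1, a growth inhibitor induced by oxidants, was lower there (log2 fold change -1.86, edgeR unadjusted p = 0.0104).

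**Figure D4:**
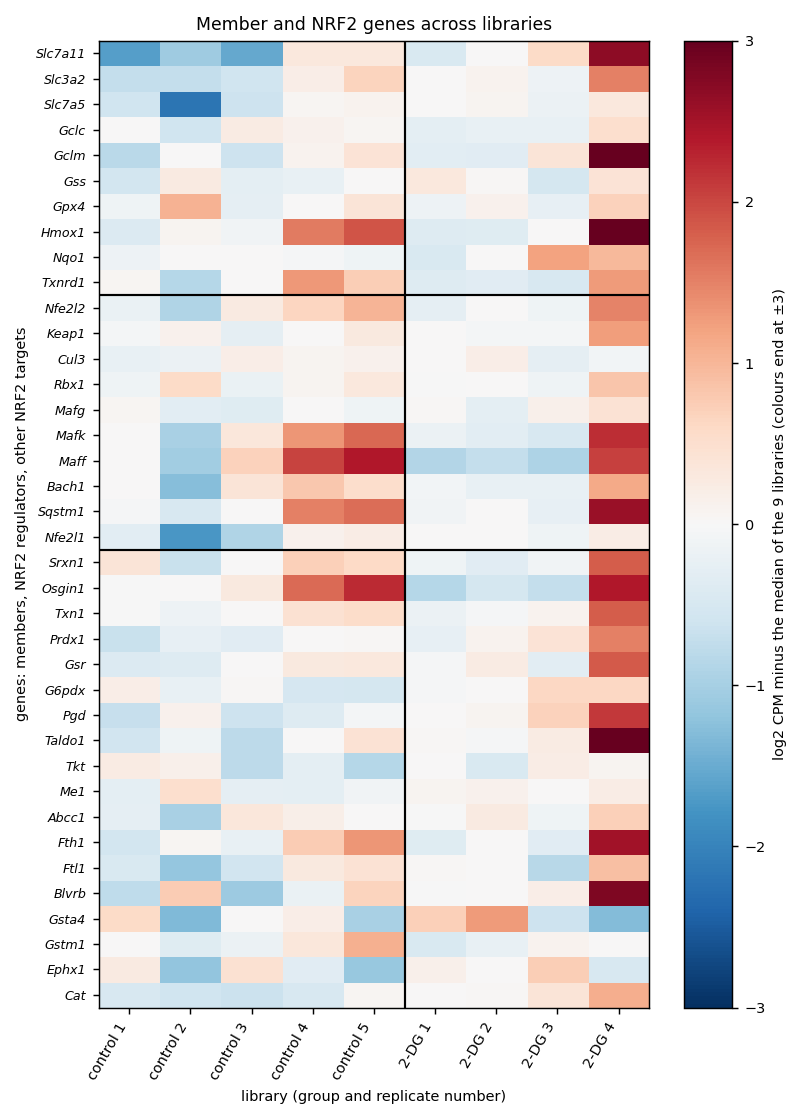
Log2 CPM minus the median of the 9 libraries for the 10 genes (top), the NRF2 regulators (middle) and other NRF2 targets (bottom); columns are libraries and colours end at 3 in either direction. 2-DG replicate 4 is red for most genes, control replicates 4 and 5 share that colour for Hmox1, Txnrd1, Mafk, Maff, Sqstm1 and Osgin1, and 2-DG replicates 1 to 3 are pale or blue for them.

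The pattern of Hmox1 and Txnrd1, with control replicates 4 and 5 and 2-DG replicate 4 as the 3 highest libraries, was shared by Slc3a2, giving 3 of the 10 genes against 8.8% of all genes tested. It held for 6 of 10 NRF2 regulators (Nfe2l2, Mafk, Maff, Bach1, Sqstm1 and Nfe2l1), for 6 of 18 other NRF2 targets (Srxn1, Osgin1, Txn1, Gsr, Fth1 and Ftl1) and for 6 of 9 genes of the ATF4 list (Atf4, Atf3, Trib3, Sesn2, Asns and Cebpb). In the remaining lists it held for 1 of 29 genes of glutathione and thioredoxin use, 2 of 11 of cysteine supply and 2 of 10 of ferroptosis. It held for 1 of 3 other SLC3A2 partners and 0 of 9 genes of selenoprotein synthesis. Within the controls alone, replicates 4 and 5 were both above replicates 1 to 3 for 6 of the 10 genes, against 17.6% of all genes. These libraries also led in the sum of endothelial markers, as given above, and they were chosen as a group after the values had been seen.

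Genes that follow the profile of a member most closely were named by correlation of log2 CPM over the 9 libraries among 14487 protein-coding genes. For Slc7a11 they were Phf10 (r = 0.981), Abcc4 (0.974), Rpl10 (0.972), Serpinb6a (0.970) and Zfp277 (0.963). Those for Hmox1 were Erich1 (r = 0.986), Tubb6 (0.986), Pnrc1 (0.985), the ferritin heavy chain gene Fth1 (0.982) and Fbl (0.981). Without the 2 libraries farthest from the median, of which 2-DG replicate 4 was one for both genes, r stayed between 0.868 and 0.976. These are descriptions over libraries that share depth and composition, and being the highest of many they carry no test. Among the 10 genes, Slc7a11 was most like Slc3a2 (r = 0.932) and Gclm (0.919) and least like Gpx4 (0.320).

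Of the 29 genes that use glutathione and thioredoxin, 0 passed the threshold, and their median log2 fold change was 0.26, 0.09 without 2-DG replicate 4. An unadjusted p under 0.05 was found for 2 of the 29, Prdx4 and Gpx3, against 7.25% of all genes, and groups that did not overlap for 1, Prdx4, against 2.93%, so both counts were near the background. Prdx4, the peroxiredoxin of the endoplasmic reticulum that reduces hydrogen peroxide there, measured 7.88, 8.23, 9.47, 9.09 and 10.9 CPM in control and 15.4, 15.9, 16.1 and 17.9 CPM in 2-DG. All 4 2-DG libraries were above all 5 controls, with 2-DG replicate 4 close to the rest. Its log2 fold change was 0.84 (SE 0.22, edgeR adjusted p = 0.524, unadjusted 0.00286), and 0.79 (SE 0.23) without that library. Prdx4 did not pass the threshold in edgeR's test, but it did with DESeq2 (adjusted p = 0.000343) and with limma-voom with sample quality weights (adjusted p = 0.0204). Gpx3, the secreted glutathione peroxidase, had a log2 fold change of 1.72 (SE 0.70, edgeR adjusted p = 0.656) that rested on 2-DG replicate 3, with 46.95 CPM there against 3.40 to 11.9 CPM in the other 2-DG libraries. For Gsto1, a glutathione transferase, it was 0.63 (SE 0.33, edgeR adjusted p = 0.733), and 0.25 without 2-DG replicate 4, where Gsto1 was at 43.98 CPM.

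Genes that supply cysteine by other routes, listed with Cdo1 and Csad of its breakdown, showed no common direction. Of their log2 fold changes, 6 of 11 were above 0, with a median of 0.01 (-0.17 without 2-DG replicate 4). None had an unadjusted p under 0.05, and Slc7a9 was too low to test. Ahcy, which releases homocysteine, had a log2 fold change of 0.48 (SE 0.27, edgeR adjusted p = 0.747), 0.11 without 2-DG replicate 4. Cth, which makes cysteine from cystathionine, had one of -0.78 (SE 0.45, edgeR adjusted p = 0.751), and Cdo1, which oxidizes cysteine, one of -0.63 (SE 0.38, edgeR adjusted p = 0.757). Without 2-DG replicate 4 these were -0.71 and -0.70. The summed CPM of the Müller markers Rlbp1, Glul, Slc1a3, Aqp4 and Kcnj10 was 1270 to 5717 in control and 524 to 2421 in 2-DG. Of the 5 markers, 2 had an unadjusted p under 0.05, both lower in 2-DG, against 4.83% of all genes. Aqp4 and Kcnj10 reached 67.3 and 56.4 CPM in 2-DG replicate 3, above the highest controls at 27.6 and 31.7 CPM. The part of the Müller markers in the values of the cysteine genes was not tested.

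Among 10 genes of ferroptosis and iron handling, Slc40a1, which encodes the iron exporter ferroportin and is itself an NRF2 target, had the smallest p with all 9 libraries and the only unadjusted p under 0.05 (1 of 10, against 7.25% of all genes). The median of the 10 was 0.21, and 0.10 without 2-DG replicate 4. Slc40a1 measured 4.81, 13.4, 7.94, 8.83 and 15.1 CPM in control and 15.96, 13.2, 27.5 and 121.2 CPM in 2-DG. 3 of the 4 2-DG libraries were above every control. The log2 fold change was 2.15 (SE 0.65, edgeR adjusted p = 0.526, unadjusted 0.00701), and 0.92 (SE 0.40, edgeR unadjusted p = 0.0471) without 2-DG replicate 4. In that fit Ptgs2, an inducible cyclooxygenase gene, at -2.45 (unadjusted p = 0.0128), and Gch1, of tetrahydrobiopterin synthesis, at -2.01 (unadjusted p = 0.0353), had smaller p values, which makes 3 of 10 against 12.9% of all genes. Alox15, a lipoxygenase, had a log2 fold change of -1.82 (SE 0.89, edgeR adjusted p = 0.712) at levels of 5.30 CPM or less. Lpcat3, which puts polyunsaturated fatty acids into phospholipids, had one of 0.36 (SE 0.23, edgeR adjusted p = 0.767).

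The list of selenoprotein synthesis held genes of the machinery on which GPX4 and TXNRD1 depend, and the selenoprotein genes Selenop, Selenow and Selenok. Its median log2 fold change was 0.05, with 0 of 9 genes past the threshold or with an unadjusted p under 0.05. Its smallest p values were those of Selenop (0.75, SE 0.47), Secisbp2 (-0.30, SE 0.23) and Selenok (0.29, SE 0.22), with edgeR adjusted p values of 0.768, 0.803 and 0.807. The log2 fold change of Selenok was 0.17 without 2-DG replicate 4. The 9 genes of the ATF4 list, which respond to a lack of amino acids, had a median of 0.19, and -0.21 without 2-DG replicate 4, with 0 past the threshold. None had an unadjusted p under 0.05 with all 9 libraries, and 1 of 9, Atf3 (edgeR unadjusted p = 0.0241), had one without that library, against 7.25% and 12.9% of all genes. Their members went different ways. Atf3, a stress-induced repressor, was at 63.0 to 544.7 CPM in control and 76.0 to 204.2 CPM in 2-DG, with a log2 fold change of -1.16 (SE 0.56, edgeR adjusted p = 0.709). The serine synthesis gene Psat1, at 40.5 to 125.5 CPM in control and 83.4 to 226.8 CPM in 2-DG, had one of 0.85 (SE 0.42, edgeR adjusted p = 0.712), and Asns, which makes asparagine, one of 0.76 (SE 0.44, edgeR adjusted p = 0.751). Without 2-DG replicate 4 these were -1.58, 0.45 and 0.26.

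**Figure D5:**
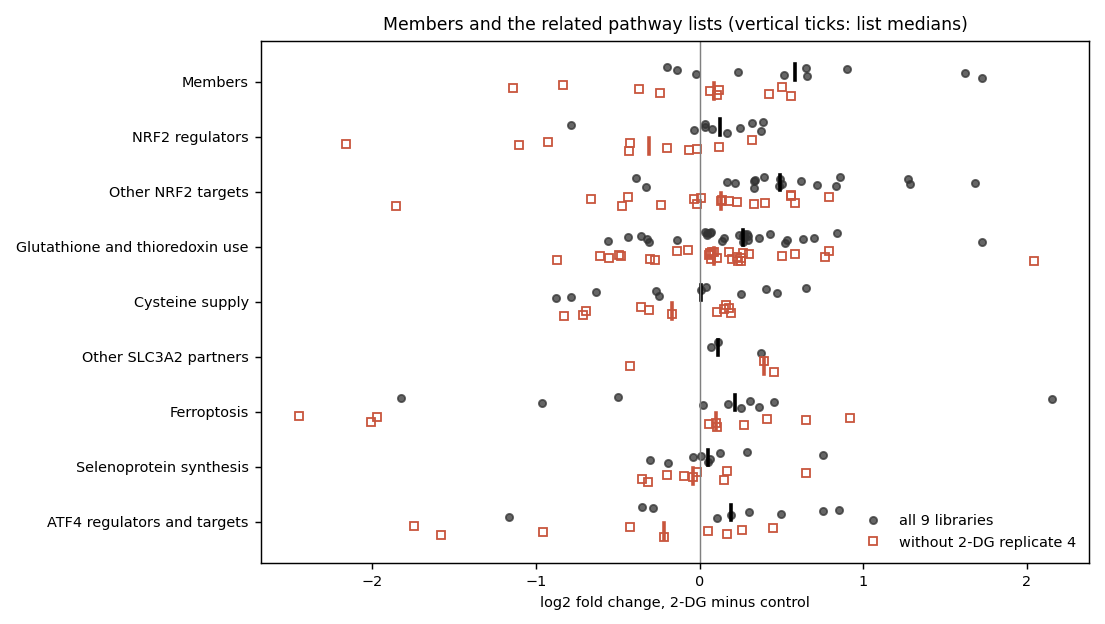
Fitted log2 fold change (2-DG minus control) of every gene tested in the 10-gene set and in the 8 related lists, with all 9 libraries (filled circles) and without 2-DG replicate 4 (open squares); vertical ticks are list medians. Leaving out that library moved the median of the 10 genes from 0.58 to 0.09 and that of the NRF2 regulators from 0.12 to -0.31.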

How the data were processed

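The authors deposited estimated counts per gene (55487 genes) and per transcript (142699 transcripts) and a table of CPM for 12568 genes, a signal scaled between libraries that was used here only as an alternative. Per the labels, libraries were made from 4 ng of total RNA with a stranded kit that removes ribosomal sequences, with 13 cycles of PCR, and read as pairs of 101 bases. The labels place all in 1 batch. The submitters' processing notes name kallisto and GRCm38, without a version. Whether gene values were derived from the transcript values is not given in the sources used here. A deposited comparison table with fold changes and p-values was not used.

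Rounding these values to integers altered library totals by 0.00377% or less. Low genes were removed with filterByExpr and libraries scaled by TMM. The quasi-likelihood test of edgeR 4.0.16 (R 4.3.3) was then run over the 9 libraries with a model of group only (glmQLFit with legacy=TRUE but not robust=TRUE, then glmQLFTest). Adjusted p values are Benjamini-Hochberg values over 21049 genes or 62900 transcripts, with a threshold of 0.05. The standard error was the log2 fold change over the square root of F. Totals were 11318087 to 51802230 counts per library, where 3 counts are 0.0556 to 0.255 CPM. Such limits cover counting error only. No 2 libraries of a group held identical values or agreed within sampling noise. The labels call the libraries biological replicates but do not say whether they came from different animals, so p values measure the spread between these libraries.

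The 10 genes, the 8 related lists and the marker lists were chosen with earlier results of these data known. Named were all 10 genes, Nfe2l2 and Keap1, the 3 genes of each list with the smallest p, transcripts above 10% of their gene, and the 5 genes most correlated with Slc7a11 and with Hmox1 (log2 CPM with a prior count of 2, mean of at least 1 CPM). A few further genes are named because of their values: those of library patterns, the fourth other NRF2 target, and those with an unadjusted p under 0.05 without 2-DG replicate 4. Lists were described by counts and medians, without a test. The marker lists (rod, cone, bipolar, Müller glia, astrocyte, ganglion cell, microglia, endothelium, pericyte, pigment epithelium, lens and red blood cell) were compared as sums of CPM. Shares of transcripts were compared for genes with at least 100 transcript counts in every library. Alternatives were other scalings, no filter, robust=TRUE, a replicate block, DESeq2 1.42.0, limma-voom with sample quality weights (limma 3.58.1), limma on log2(deposited CPM + 0.5), and each library left out. After the values had been seen, control replicate 2 and 2-DG replicate 4 were also left out together. Scripts were tested on simulated data. Coordinates come from GENCODE M21 on GRCm38, and upstream windows from RefSeq on GRCm38.p6.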

Additional observations from a re-analysis of the deposited data

Results flagged for a closer look

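2-DG replicate 4 stood apart from the other 3 2-DG libraries by Dixon's 95% criterion for 6 of the 10 genes, each time upward. Its level was 1499.85 CPM for Slc7a11, 1152.84 CPM for Slc3a2, 149.885 CPM for Gclc, 747.196 CPM for Gclm, 4758.04 CPM for Hmox1 and 624.108 CPM for Txnrd1. The criterion was applied to 20 groups of libraries, 10 control and 10 2-DG, and chance alone flags about 1 in 20 of them. No control group stood out. The same library stood apart upward for 8.64% of all genes tested. Genes within 1 library are not independent of each other, and 2-DG replicate 4 also had the highest mitochondrial share (13.6%), the highest endothelial marker sum (2342 CPM) and the lowest TMM scaling factor (0.820). The part of these differences in the 6 levels was not tested.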

How the results depend on the processing

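None of the 10 genes passed the threshold where it had an adjusted p under the 19 alternatives (DESeq2 gave none for Gclm), and the lowest adjusted p among them was 0.118 (Txnrd1, limma-voom with sample quality weights). Counts over all genes did change, from 0 to 284 with DESeq2, 1222 with limma-voom with sample quality weights and 177 with control replicate 2 and 2-DG replicate 4 both left out. They were between 0 and 16 when 1 library was left out, the 16 without control replicate 2 and 2 without 2-DG replicate 4. Of the 99 related genes tested, 1 (Prdx4) passed with DESeq2, against 1.35% of all genes, and 4 (Prdx4, Maff, Cbs and Atf3) with the quality weights, against 5.81%. The weights were lowest for 2-DG replicate 4 (0.263) and control replicate 2 (0.275). Hmox1 turned to -0.91 with the quality weights, -1.14 without 2-DG replicate 4 and -1.30 with both libraries left out. Slc3a2 turned to -0.017 in that last fit, and ranged from 0.11 to 0.93 with 1 library left out. Gclc was -0.36 with both left out and -0.33 with the quality weights, turned to 0.00015 with no filter on low counts and, with 1 library left out, ranged from -0.24 to 0.068, turning positive at 0.049 without control replicate 3 and at 0.044 to 0.068 without any one of 2-DG replicates 1 to 3. The causes were not tested beyond the fits named. With 1 library left out, the log2 fold change ranged from 0.56 to 2.04 for Slc7a11, 0.07 to 1.94 for Gclm, 0.28 to 0.69 for Slc7a5 (lowest without control replicate 2), 0.37 to 0.89 for Nqo1 (lowest without 2-DG replicate 3), -1.14 to 1.29 for Hmox1, -0.37 to 0.14 for Gpx4 (positive without control replicate 2) and -0.83 to 0.10 for Txnrd1 (positive without control replicate 4), and the median of the 10 genes from 0.09 to 0.68. Deviations of libraries with the same replicate number correlated at 0.451, -0.155, 0.102 and 0.205, and 3 of 8 libraries correlated best with their own number, so the replicate numbers were not taken to pair the samples. With a replicate block, 0 genes passed, as before, and the median of the 10 genes was 0.44. An unadjusted p under 0.05 was then found for 3 of the 10 genes rather than 2, against 6.42% of all genes, namely Slc7a11 (0.000725), Slc3a2 (0.0132) and Slc7a5 (0.0452) by edgeR, and no longer for Gclm (0.0897). Limma on the deposited CPM gave 0.0039 for Hmox1, 0.80 for Gclm and a median of 0.26 for the 10 genes. Other scaling of the counts moved the median of all genes by at most 0.09.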
